A study of Mus musculus with 78 samples.

Results

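The data compared total RNA of mouse CD8+ T cells treated with 4EGI-1 against total RNA of the same kind of cells treated with the solvent DMSO. The members were chosen by label, as the total RNA libraries of the drug experiment named 4EGi1 (replicates 2, 3 and 4) and DMSO (replicates 1, 3 and 4), so they are 6 of the 60 libraries with counts, and each holds 14695 genes. The cells were primary CD8+ T cells of C57BL/6J mice, taken from lymph node and spleen, on day 3 of activation, and both groups had 3 h in their medium with drug or solvent before lysis. The sources used here give no dose of 4EGI-1 and leave unstated if the numbered replicates came from different cultures or animals, so p-values measure the spread between these libraries, which may be technical. By their labels these libraries hold polyA RNA. The 12 total RNA libraries of the drug experiment were fitted together, since the 4EGI-1 libraries were also set against 3 libraries with Torin1 and 3 with halofuginone.

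4EGI-1 is a small molecule that binds eIF4E and blocks its contact with eIF4G. eIF4E holds the cap of an mRNA, eIF4G is the scaffold and eIF4A the helicase of the eIF4F complex, which brings the small ribosomal subunit to the mRNA. Activated CD8+ T cells translate heavily, and many of their effector and growth genes (cytokines, Myc, cyclins) make short-lived mRNAs whose level follows signalling within hours. The comparison asks which mRNAs changed in amount during 3 h with the compound, separately from how well they were translated.

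The libraries held 18328345 to 20178741 counts with 4EGI-1 and 20152972 to 21291474 with DMSO. Of 15 marker genes of CD8+ T cells 14 were measured, each above a CPM (counts scaled to the library's total) of 1, and together they summed to 11100 to 14200 CPM with 4EGI-1 and 13300 to 14600 CPM with DMSO. B cell markers summed to 117 to 124 CPM with 4EGI-1 and 113 to 123 CPM with DMSO (4 of 11 genes measured), and myeloid markers to 87.4 to 106 and 84.1 to 96.8 CPM (3 of 20). Markers of CD4+ and regulatory T cells summed to 18.5 to 19.9 CPM with 4EGI-1 and 11.7 to 13.1 CPM with DMSO (2 of 4 measured), nearly all of it Zbtb7b (18.0 CPM with 4EGI-1 and 12.3 CPM with DMSO, adjusted p = 0.00131), and stromal and endothelial markers to 17.1 to 17.9 and 11.1 to 13.4 CPM (2 of 11), mostly Pecam1 (16.7 and 12.1 CPM, adjusted p = 0.00685). The part of other cells in the changes below was not tested, and in bulk RNA fewer cells that make an mRNA cannot be told apart from less mRNA per cell. On the first principal component of the 12 libraries, with 38.6% of the variance, the 4EGI-1 libraries lay at -43.04 to -36.14 and the DMSO libraries at 5.73 to 9.045.

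Of 12535 genes tested, 1762 were higher and 1546 lower with 4EGI-1 than with DMSO at an adjusted p under 0.05, which is 14.1% and 12.3% of the genes tested. Counts of list members below stand beside these shares. Calls above 2-fold were fewer, 332 genes higher and 143 lower, and the median log2 fold change of all genes tested was 0.01. Of the 12535 genes, called or not, 2599 had every 4EGI-1 library above every DMSO library, and 2326 had every one below. Groups without overlap that are named below stand beside these counts. Among called genes the sharpest falls by fold were those of the chemokines Ccl4 and Ccl3, and the sharpest rises were in genes whose level with DMSO was near 0. Levels below are CPM scaled by TMM factors, in the order of the replicate numbers, and changes are log2 fold changes of 4EGI-1 over DMSO, each followed by ± its standard error. A change here is relative to the other genes, because a shift shared by all genes is removed by the scaling.

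**Figure D1:**
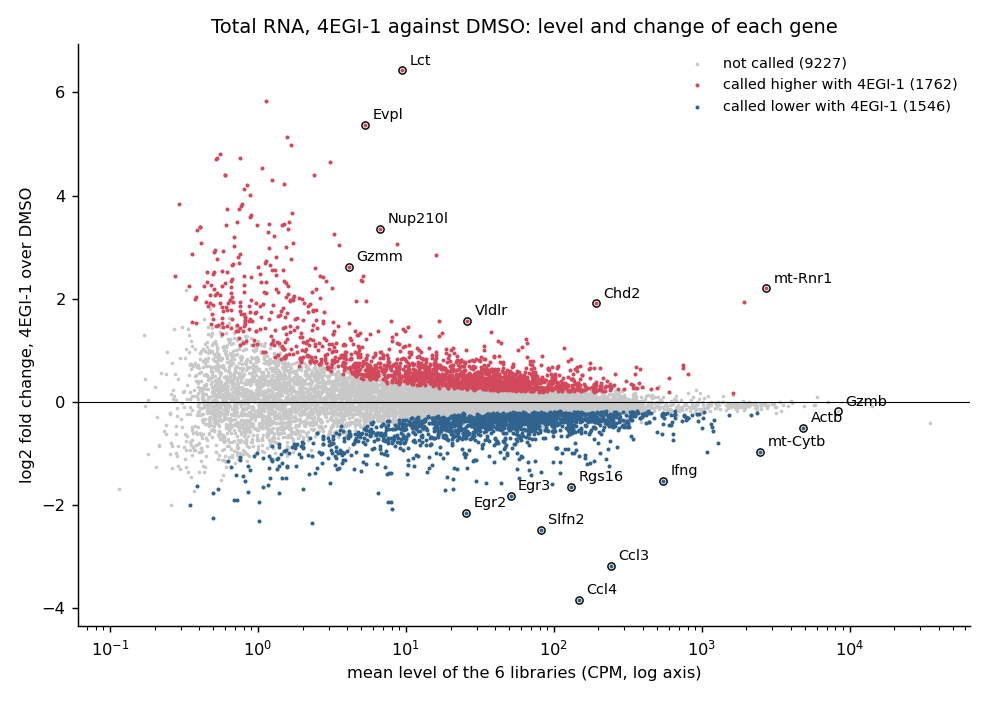
Each point is 1 of 12535 genes in total RNA, with its mean level over the 6 libraries (CPM, log axis) on the horizontal axis and its log2 fold change of 4EGI-1 over DMSO on the vertical axis. The 1762 red genes were called higher and the 1546 blue genes lower. The largest rises (Lct, Evpl) lie at low levels, while Ccl4, Ccl3, Slfn2 and Ifng fell at higher levels.

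Ccl4, an inflammatory chemokine that attracts leukocytes, had 15.8, 21.2 and 21.3 CPM with 4EGI-1, against 259, 228 and 345 CPM with DMSO. That is a log2 change of -3.84 ± 0.22 (adjusted p = 5.88e-09). Every 4EGI-1 library lay below every DMSO library, as the rule for genes named by fold required. Its neighbour in function Ccl3 had 38.6, 49.8 and 56.8 CPM with 4EGI-1, against 425, 338 and 548 CPM with DMSO (-3.17 ± 0.22, adjusted p = 4.22e-08). Xcl1, which draws cross-presenting dendritic cells to CD8+ T cells, had 80.7, 107 and 114 CPM with 4EGI-1, against 185, 214 and 299 CPM with DMSO, a change of -1.21 ± 0.18. Ccl5, a chemokine of late effector and memory cells, stayed low in both groups at 6.49, 7.02 and 7.26 CPM with 4EGI-1, against 9.39, 6.07 and 11.5 CPM with DMSO, and its change of -0.38 ± 0.23 did not pass the test (adjusted p = 0.246), but passed without DMSO replicate 3 (-0.605, adjusted p = 0.0485). Of 16 chemokines and receptors tested, 7 fell and 1 rose, with a median of -0.35. Among the receptors Cxcr3, which guides effector cells to inflamed tissue, fell by the largest amount (4.34, 3.51 and 4.39 CPM with 4EGI-1, 8.46, 11.6 and 12.4 CPM with DMSO). S1pr1, the receptor for exit from lymphoid organs, Ccr8 and Cxcr6 fell too, with changes of -1.03 to -0.64. Cxcr4, the receptor of the bone marrow chemokine CXCL12, was the one that rose, with 74.3, 59.3 and 48.7 CPM with 4EGI-1, against 26.4, 29.8 and 26.0 CPM with DMSO (1.15 ± 0.15). Without DMSO replicate 4 there were 2 higher.

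Cytokine mRNAs fell almost as a group, 11 of 13 tested lower and 0 higher, with a median change of -1.04. At an unadjusted p under 0.05, 12 were lower and 0 higher in edgeR, and DESeq2 called 12 lower and 0 higher. Ifng, the main antiviral cytokine of CD8+ T cells, had 310.1, 266 and 273 CPM with 4EGI-1, against 777, 803 and 874 CPM with DMSO. The change was -1.53 ± 0.10 (adjusted p = 1.52e-08), with no overlap between the groups. Lta, the gene of lymphotoxin alpha, had 173, 126 and 117 CPM with 4EGI-1, against 283, 394 and 315 CPM with DMSO (-1.25 ± 0.14), and its neighbour Tnf had 28.0, 21.7 and 21.4 CPM with 4EGI-1, against 41.2, 52.7 and 52.7 CPM with DMSO (-1.04 ± 0.14, adjusted p = 4.31e-05). Both genes thus had lower levels in each 4EGI-1 library than in any DMSO library. Il24, an IL-10 family cytokine, had the largest fall of the list at -1.71 ± 0.27. Csf1, Tnfsf11 (RANK ligand), Tnfsf10 (TRAIL), Tnfsf14 (LIGHT), Lif, Osm and Tgfb1 were the other called members, with changes between -1.49 and -0.54. Il10, at -1.11, and Ltb, the membrane partner of lymphotoxin alpha, with 114, 119.8 and 125 CPM with 4EGI-1, against 116, 118 and 139 CPM with DMSO (-0.05 ± 0.08, adjusted p = 0.67), did not pass the test. Leaving out any of the 6 libraries left 11 or 12 cytokines lower.

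The killing machinery divided. Prf1, the pore-forming perforin, had 106, 104 and 101 CPM with 4EGI-1, against 216, 208 and 239 CPM with DMSO (-1.09 ± 0.09, adjusted p = 3.57e-07). Fasl, the death ligand, had 20.8, 17.9 and 14.0 CPM with 4EGI-1, against 36.3, 43.9 and 36.2 CPM with DMSO (-1.14 ± 0.12). Neither gene's groups overlapped. Gzmb, the granule protease that dominates activated CD8+ T cells, had 9201, 7383 and 6769 CPM with 4EGI-1, against 8309, 9495 and 8674 CPM with DMSO, groups that overlapped, and a change of -0.18 ± 0.10 that did not pass the test (adjusted p = 0.189). Without the 4EGI-1 replicate 2 library its change was -0.32 and passed (adjusted p = 0.0115). Gzmm, a granzyme typical of innate-like lymphocytes, ran the other way with 8.25, 6.97 and 5.90 CPM with 4EGI-1, against 1.12, 1.66 and 0.664 CPM with DMSO (2.62 ± 0.26, adjusted p = 1.86e-06). Of 17 cytotoxic and granule genes tested 2 rose and 3 fell, and the median was -0.09. Those shares, 11.8% and 17.6%, are near the 14.1% and 12.3% of all genes tested. The other called members were Nkg7, a granule membrane protein (-0.29 ± 0.08), and the serpin gene Serpinb6b (0.27 ± 0.08). The Serpinb6b call was lost without 4EGI-1 replicate 2 or 3 or DMSO replicate 1 or 4 (adjusted p between 0.0546 and 0.0785). Without 4EGI-1 replicate 2 the counts were 1 higher and 5 lower, and without 4EGI-1 replicate 3 or DMSO replicate 1 there was 1 higher.

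**Figure D2:**
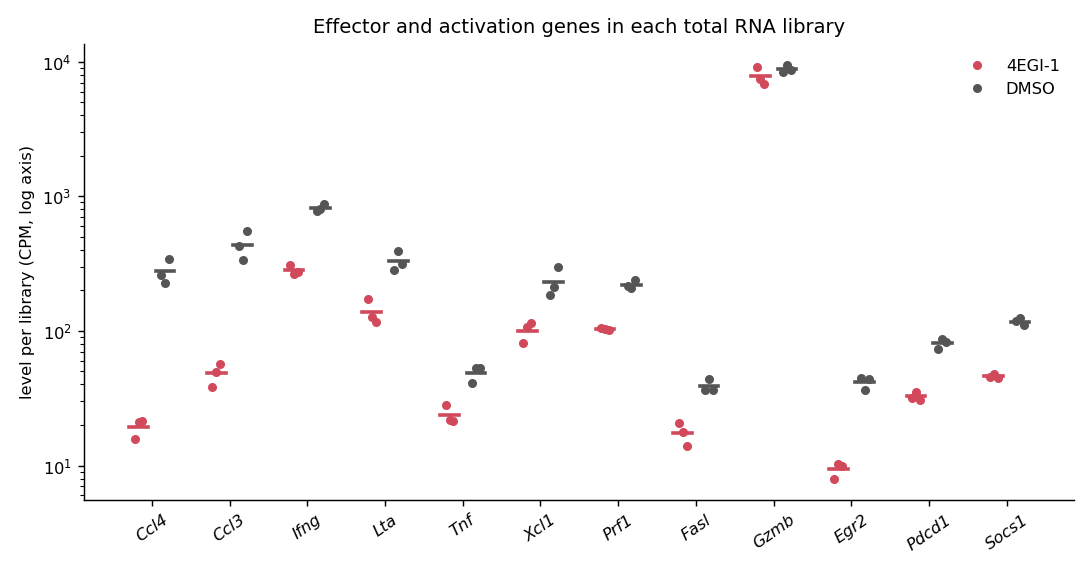
Levels (CPM, log axis) of 12 effector and activation genes in each total RNA library, with the 3 4EGI-1 libraries in red on the left of each pair, the 3 DMSO libraries in grey on the right, and a bar at the group mean. For 11 of the genes the groups do not overlap, all lower with 4EGI-1, and Gzmb is the one whose groups overlap. The 12 genes were picked for display, and for Ccl4, Ccl3 and Egr2 the rule for genes named by fold required this. Of the 12535 genes tested, 2326 had every 4EGI-1 library below every DMSO library.

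Transcription factors and feedback genes that follow the T cell receptor also changed, in both directions. Egr2, induced by calcium and MAP kinase signalling, had 7.97, 10.2 and 9.92 CPM with 4EGI-1, against 44.6, 36.3 and 43.7 CPM with DMSO (-2.15 ± 0.14, adjusted p = 1.30e-08). Egr3 of the same zinc finger family had 19.8, 24.9 and 22.8 CPM with 4EGI-1, against 80.6, 74.4 and 83.6 CPM with DMSO (-1.82 ± 0.12). The groups lay apart for both, as the rule for genes named by fold required. Nr4a1, another gene of receptor strength, fell less, at -0.35 ± 0.09. Of 38 immediate early genes 15 fell and 5 rose, which is 39.5% and 13.2%, beside 12.3% and 14.1% of all genes tested. The share that rose was thus near that of all genes. The 5 that rose were Ier5l (1.29 ± 0.15), Ier3 (0.90 ± 0.08), Fosl2 (0.84 ± 0.11), Fosb and Atf3 (0.52 ± 0.08). Ier3, an early response gene tied to cell survival, had 111, 106 and 109.6 CPM with 4EGI-1, against 58.9, 62.2 and 54.4 CPM with DMSO. Of 21 genes of MAP kinase phosphatases and Ras feedback 7 fell, 2 rose (1 without DMSO replicate 4) and 12 were not called, with a median of -0.07. The shares were 33.3% lower and 9.52% higher. The phosphatase Dusp2 had 53.1, 64.1 and 66.1 CPM with 4EGI-1, against 168, 132 and 177 CPM with DMSO (-1.38 ± 0.13), Dusp6, which acts on ERK, had 10.7, 14.7 and 11.8 CPM with 4EGI-1, against 30.1, 23.4 and 36.4 CPM with DMSO (-1.28 ± 0.19), and Spry1, a brake on receptor signalling to Ras, had 9.3, 10.9 and 10.1 CPM with 4EGI-1, against 31.2, 25.4 and 27.4 CPM with DMSO (-1.47 ± 0.11). Rgs16, which limits chemokine receptor signalling through G proteins, changed by -1.65 ± 0.17.

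Among 25 transcription factors of effector differentiation 7 fell and 5 rose (28.0% and 20.0%, beside 12.3% and 14.1% of all genes tested). Tbx21 (T-bet), which drives Ifng and the effector programme, had 35.1, 43.3 and 44.8 CPM with 4EGI-1, against 99.8, 85.7 and 91.5 CPM with DMSO (-1.17 ± 0.11, adjusted p = 1.08e-06). Zbtb32, Gata3, Irf8, Irf4, Batf3 and Gfi1 were the other 6 that fell, with changes of -0.92 to -0.66. Irf4, whose level scales with receptor signal, had 231, 271 and 271 CPM with 4EGI-1, against 466, 397 and 411 CPM with DMSO. Rora, a nuclear receptor, rose most at 14.1, 16.0 and 15.2 CPM with 4EGI-1, against 6.16, 5.42 and 4.98 CPM with DMSO (1.45 ± 0.16), ahead of Zeb1, Ikzf2, Id2 and Nfil3. The number of factors called higher was 2 without 4EGI-1 replicate 3 and 3 without DMSO replicate 3 or 4. Eomes (-1.28 ± 0.18) and Id3 (-1.23 ± 0.11), factors of memory cells, fell as well, while Satb1 rose (0.54 ± 0.08). Myc, the factor of growth and metabolism in dividing T cells, had 123, 145 and 144 CPM with 4EGI-1, against 293, 254 and 272 CPM with DMSO (-0.996 ± 0.09, adjusted p = 6.82e-07). Its partner Max had a log2 fold change of -0.01 and did not pass, and the MYC antagonists Mxd1, Mxd4 and Mxi1 rose by 0.54, 0.36 and 0.35. Of 15 genes of the MYC and MAX network tested, 3 rose, 3 fell and 9 were not called, with a median of -0.07. That is 20.0% in each direction, beside 14.1% higher and 12.3% lower of all genes tested.

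The inhibitory receptor PD-1, encoded by Pdcd1, had 31.7, 35.4 and 30.8 CPM with 4EGI-1, against 73.2, 86.6 and 82.4 CPM with DMSO (-1.31 ± 0.08, adjusted p = 1.34e-08). Cd160, Cd200, Nt5e and Btla fell too, with changes of -0.66 to -0.38, which made 5 of 12 inhibitory receptor genes. That is 41.7%, beside 12.3% of all genes tested. Lag3, Ctla4, Tigit and Tox were among the 7 that did not pass. The count was 3 without 4EGI-1 replicate 3 and also 3 without 4EGI-1 replicate 4.

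Several feedback genes of cytokine receptor signalling were lower as well. Socs1, which switches off JAK kinases, had 45.4, 47.9 and 44.5 CPM with 4EGI-1, against 118, 124 and 110.0 CPM with DMSO (-1.35 ± 0.08, adjusted p = 6.85e-09). The survival kinase Pim1 had 111, 116 and 123 CPM with 4EGI-1, against 269, 238 and 269 CPM with DMSO (-1.15 ± 0.07), and Bcl2l1, which encodes BCL-XL against apoptosis, had 73.8, 95.3 and 95.4 CPM with 4EGI-1, against 186, 165 and 175 CPM with DMSO (-0.99 ± 0.10). Il2ra, the high-affinity subunit of the IL-2 receptor, had 1109, 962 and 825 CPM with 4EGI-1, against 1321, 1484 and 1284 CPM with DMSO, a smaller change of -0.50 ± 0.10. Of 34 genes of IL-2 and cytokine receptor signalling 9 fell, Socs2, Cish and Stat5a among them, and 2 (Pim3 and Stat5b) rose. Those shares, 26.5% and 5.88%, stand beside 12.3% and 14.1% of all genes tested. The number higher was 1 without 4EGI-1 replicate 3 or 4 or DMSO replicate 3. The kinases Jak1, Jak2 and Jak3 and the receptor chains Il2rb and Il2rg were not called.

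Genes that interferons induce formed a further falling group. Of 39 tested 17 fell and 1 rose, with a median of -0.38, and the number lower ran from 12 to 18 when single libraries were left out. The one that rose, the RNA sensor Rigi, was not called without 4EGI-1 replicate 3 or 4 or DMSO replicate 1 or 4. Ifit1, which binds foreign RNA, changed by -2.31 ± 0.37. Slfn2, which keeps T cells quiescent and protects tRNA, had 22.4, 26.0 and 25.7 CPM with 4EGI-1, against 149, 115 and 151 CPM with DMSO (-2.48 ± 0.12, adjusted p = 4.72e-10). Immunity-related GTPases that attack vacuoles of parasites fell together. Irgm1 had 35.5, 37.3 and 40.8 CPM with 4EGI-1, against 101, 99.6 and 104 CPM with DMSO (-1.42 ± 0.08), and Igtp had 123, 150.0 and 152 CPM with 4EGI-1, against 312, 292 and 316 CPM with DMSO (-1.11 ± 0.08). Iigp1 of the same family, which was not in the list, changed by -1.59 ± 0.10. The guanylate-binding protein gene Gbp4 had 36.4, 40.8 and 32.5 CPM with 4EGI-1, against 72.2, 63.6 and 68.8 CPM with DMSO (-0.90 ± 0.09). Its relatives Gbp2, Gbp3, Gbp5, Gbp7 and Gbp9 did not pass, and reads of such close relatives may be split between them.

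Promoters of 3 of these genes are printed to show the interferon-stimulated response element core, AAANNGAAA, in capitals on either strand (overlapping matches are joined). They are 300-base windows, 250 bases before to 50 after the start in RefSeq GRCm38.p6, 5′ to 3′ on the gene's strand, for Irgm1 at chr11:48871371-48871670 (minus strand), Igtp at chr11:58199306-58199605 (plus) and Gbp4 at chr3:142559794-142560093 (plus).
Irgm1: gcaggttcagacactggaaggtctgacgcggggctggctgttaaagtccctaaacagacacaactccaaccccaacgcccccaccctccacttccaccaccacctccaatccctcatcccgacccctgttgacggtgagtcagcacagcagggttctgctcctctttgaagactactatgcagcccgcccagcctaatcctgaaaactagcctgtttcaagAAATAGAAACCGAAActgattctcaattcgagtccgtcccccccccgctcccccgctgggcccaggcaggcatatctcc
Igtp: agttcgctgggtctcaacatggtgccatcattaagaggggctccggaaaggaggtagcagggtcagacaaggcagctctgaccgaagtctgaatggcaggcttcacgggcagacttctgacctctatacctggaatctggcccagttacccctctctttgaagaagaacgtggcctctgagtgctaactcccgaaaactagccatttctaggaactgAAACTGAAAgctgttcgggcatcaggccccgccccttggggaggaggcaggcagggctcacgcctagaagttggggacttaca
Gbp4: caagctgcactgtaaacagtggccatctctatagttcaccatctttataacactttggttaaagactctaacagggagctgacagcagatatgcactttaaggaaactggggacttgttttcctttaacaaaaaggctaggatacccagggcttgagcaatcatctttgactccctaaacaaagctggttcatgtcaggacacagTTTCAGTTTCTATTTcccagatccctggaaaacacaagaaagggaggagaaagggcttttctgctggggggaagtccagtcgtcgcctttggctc
The core begins 29 and 23 bases before the start in Irgm1, 33 in Igtp, and 45 and 39 in Gbp4, where it is on the opposite strand. Of the 17 interferon-stimulated genes that fell, 15 had a window and 9 of those held the core, in 52.9% of their 17 windows. The core was in 10.6% of all 32851 windows and in 7.8% of the 11358 windows of genes tested. Members of the list that were not called were not counted, so whether the share is particular to those that fell was not tested. A match is a description of the letters and says nothing of which factor was bound.

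Genes of the integrated stress response moved the other way, but only some of them. In this response phosphorylation of eIF2alpha limits initiation and raises the factors ATF4 and CHOP, which switch on genes of stress feedback and of amino acid supply. Of 37 targets tested 17 rose and 2 fell, with a median of 0.13 (1 fell without 4EGI-1 replicate 3 and 4 without 4EGI-1 replicate 4). Vldlr, a lipoprotein receptor and ATF4 target, had 46.9, 35.7 and 33.8 CPM with 4EGI-1, against 12.7, 14.3 and 12.1 CPM with DMSO (1.57 ± 0.15, adjusted p = 1.39e-06). Slc1a4, a carrier of serine and alanine, had 64.7, 57.3 and 53.1 CPM with 4EGI-1, against 25.1, 28.5 and 23.3 CPM with DMSO (1.19 ± 0.10), and Ppp1r15a (GADD34), which restarts translation by dephosphorylating eIF2alpha, had 89.6, 91.5 and 90.0 CPM with 4EGI-1, against 40.6, 36.1 and 45.5 CPM with DMSO (1.15 ± 0.09). Those groups did not overlap. Sesn2, an inhibitor of mTORC1, had 81.2, 81.3 and 84.2 CPM with 4EGI-1, against 41.4, 34.8 and 42.0 CPM with DMSO (1.06 ± 0.09), and Ddit3, which encodes CHOP, had 52.2, 49.4 and 53.0 CPM with 4EGI-1, against 26.8, 31.0 and 25.5 CPM with DMSO (0.89 ± 0.08). Chac1, a glutathione-degrading enzyme, had 13.7, 13.8 and 14.0 CPM with 4EGI-1, against 9.00, 8.03 and 7.73 CPM with DMSO (0.75 ± 0.14). Atf4 itself had 621, 640.0 and 639.6 CPM with 4EGI-1, against 553, 557 and 563 CPM with DMSO, a change of 0.18 ± 0.06 whose adjusted p of 0.0324 lost the threshold on leaving out any of 5 of the 6 libraries (adjusted p 0.075 to 0.109).

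Most targets that make amino acids were not called. Asns, the asparagine synthetase, had 113, 139 and 155 CPM with 4EGI-1, against 152, 142 and 139 CPM with DMSO (-0.09 ± 0.10, adjusted p = 0.55), and Psat1, Phgdh, Shmt2, Mthfd2, Pycr1 and Aldh18a1 likewise did not pass, with log2 changes between -0.24 and 0.09. Slc7a5, the leucine carrier, was lower (-0.25 ± 0.08, adjusted p = 0.0294), a call lost without 4EGI-1 replicate 3 or 4 or DMSO replicate 3, and Atf5 was the other target that fell (-0.50 ± 0.09). Trib3, a pseudokinase that restrains ATF4, had 55.0, 75.1 and 88.5 CPM with 4EGI-1, against 63.8, 46.9 and 55.1 CPM with DMSO, with overlapping groups and an adjusted p of 0.0529. Its change of 0.40 ± 0.15 passed without 4EGI-1 replicate 2 (0.56, adjusted p = 0.00347), without DMSO replicate 1 (0.51, adjusted p = 0.0309), in DESeq2 (0.39, adjusted p = 0.0449) and with a minimum count of 50 (0.41, adjusted p = 0.046). Of 19 cytosolic aminoacyl-tRNA synthetases, a further class that ATF4 controls, 0 rose and 3 fell in edgeR. The share lower, 15.8%, is near the 12.3% of all genes tested. At an unadjusted p under 0.05, 1 was higher and 3 were lower, and DESeq2 called 0 higher and 3 lower. Leaving out 4EGI-1 replicate 2 or 3 or DMSO replicate 1 gave 0 lower, and leaving out DMSO replicate 4 gave 1.

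Windows of 3 of the rising targets are printed with the core of the C/EBP-ATF response element, TGATGNAA on either strand, in capitals. They are Vldlr at chr19:27216770-27217069 (plus strand, 1 of its 2 windows, taken for holding the core), Slc1a4 at chr11:20332664-20332963 (minus) and Chac1 at chr2:119350992-119351291 (plus), from RefSeq GRCm38.p6.
Vldlr: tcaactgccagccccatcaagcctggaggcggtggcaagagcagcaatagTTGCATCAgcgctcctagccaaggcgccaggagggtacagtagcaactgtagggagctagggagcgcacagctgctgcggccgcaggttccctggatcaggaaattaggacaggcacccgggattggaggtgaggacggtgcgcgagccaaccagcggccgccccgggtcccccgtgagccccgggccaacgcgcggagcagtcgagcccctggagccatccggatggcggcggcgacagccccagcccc
Slc1a4: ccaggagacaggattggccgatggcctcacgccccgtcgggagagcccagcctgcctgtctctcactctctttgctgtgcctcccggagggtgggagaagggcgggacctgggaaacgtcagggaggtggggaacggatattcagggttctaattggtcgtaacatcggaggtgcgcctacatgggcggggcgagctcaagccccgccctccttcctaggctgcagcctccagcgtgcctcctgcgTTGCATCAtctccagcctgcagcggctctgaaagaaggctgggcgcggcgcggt
Chac1: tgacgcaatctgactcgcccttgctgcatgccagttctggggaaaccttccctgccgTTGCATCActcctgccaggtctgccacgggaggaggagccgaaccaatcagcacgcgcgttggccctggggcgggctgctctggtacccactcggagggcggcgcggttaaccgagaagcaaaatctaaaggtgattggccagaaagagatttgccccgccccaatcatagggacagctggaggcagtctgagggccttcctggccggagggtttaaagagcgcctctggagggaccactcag
All 3 hold the core on the opposite strand, beginning 200 bases before the start in Vldlr, 4 in Slc1a4 and 193 in Chac1. Among the 17 targets that rose, 16 had a window and 5 held the core (25% of 20 windows). It was in 3.97% of all 32851 windows and in 2.22% of the 11358 windows of genes tested. Windows of Asns, Trib3 and Nupr1, which were not called, held it too. The list is of ATF4 and CHOP targets, so a share above that of all genes tested says nothing of 4EGI-1. The targets that were not called were not counted as a group, so whether the share is particular to those that rose was not tested.

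Genes of glucose uptake and of the hypoxia factor HIF-1 rose, and most enzymes of glycolysis did not pass. Of 34 tested 16 rose and 1 fell, with a median of 0.18, and leaving out a library gave 12 to 15 higher. Vegfa, the vascular growth factor, had 164, 157 and 155 CPM with 4EGI-1, against 78.2, 80.3 and 71.1 CPM with DMSO (1.05 ± 0.09, adjusted p = 2.79e-07). The glucose carriers Slc2a3 and Slc2a1 had 1044, 892 and 828 CPM with 4EGI-1, against 561, 514 and 618 CPM with DMSO (0.71 ± 0.11), and 539, 458 and 408 CPM with 4EGI-1, against 283, 328 and 291 CPM with DMSO (0.64 ± 0.10). Ero1a, an oxidase of disulfide formation, had 1067, 899.6 and 755 CPM with 4EGI-1, against 562, 594 and 579 CPM with DMSO (0.65 ± 0.11), and the HIF prolyl hydroxylase Egln3 had 748, 684 and 641 CPM with 4EGI-1, against 527, 480.2 and 493 CPM with DMSO (0.47 ± 0.08). In none of these did the groups overlap. Gapdh, Pkm, Ldha, Eno1, Pgk1, Tpi1 and Hk2 were not called, with log2 changes of -0.17 to 0.05, and Pfkl, a phosphofructokinase, fell with groups that overlapped (-0.28 ± 0.09, adjusted p = 0.0329). The Pfkl call was lost without 4EGI-1 replicate 2 or 3 and without DMSO replicate 1 or 4. Tfrc, the transferrin receptor for iron uptake, rose as well, with 1162, 932 and 787 CPM with 4EGI-1, against 609, 756 and 628 CPM with DMSO (0.53 ± 0.12).

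**Figure D3:**
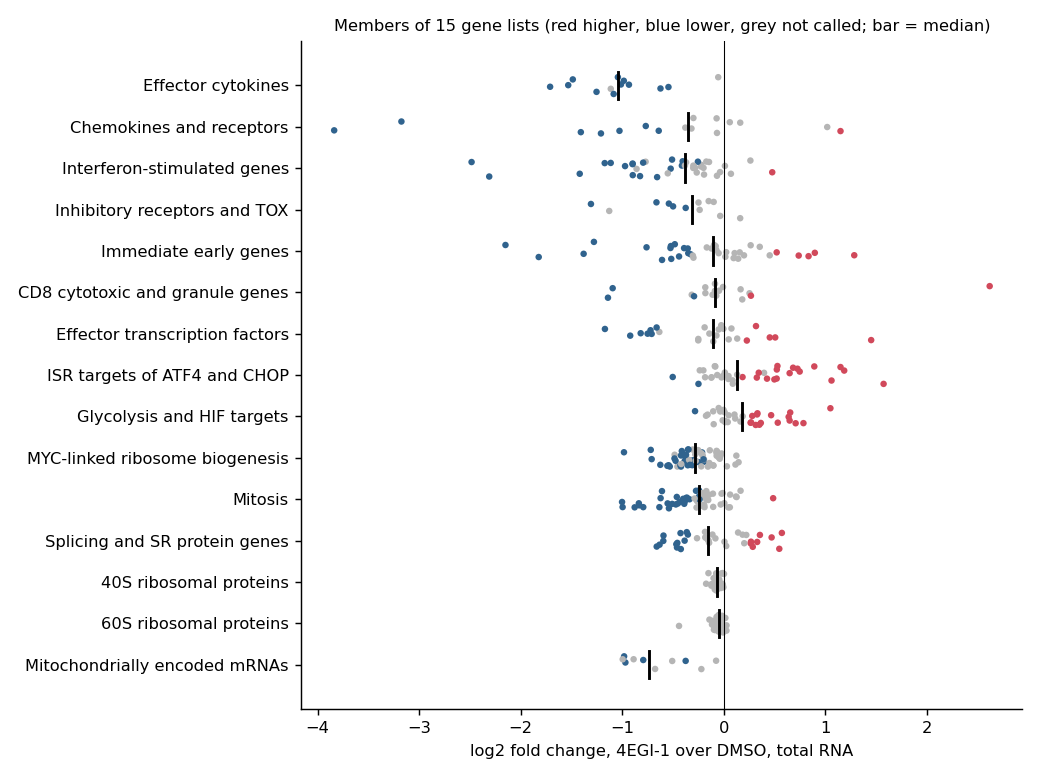
Each point is a member of 1 of 15 gene lists, placed by its log2 fold change of 4EGI-1 over DMSO in total RNA. Red members were called higher, blue lower and grey not called, and the black bar is the list's median. Effector cytokines have their median at -1.04, ISR targets and HIF targets spread to the right, and the 40S and 60S ribosomal proteins lie close to 0.

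Of 61 genes of ribosome biogenesis 29 fell and 0 rose, with a median of -0.28 (at an unadjusted p under 0.05, 37 lower and 0 higher, and 30 and 0 in DESeq2). Grwd1, an assembly chaperone of the large subunit, had 22.6, 31.9 and 32.9 CPM with 4EGI-1, against 63.2, 52.8 and 56.6 CPM with DMSO (-0.98 ± 0.13), followed by Nop16 (-0.72 ± 0.10), Bop1 (-0.71 ± 0.07) and Dkc1 (-0.62 ± 0.07). The mRNAs of the ribosomal proteins themselves gave no calls in total RNA. None of the 33 mRNAs of the 40S subunit and none of the 47 of the 60S subunit was called in edgeR or in DESeq2, with medians of -0.06 and -0.05 (1 lower and 0 higher at an unadjusted p under 0.05 in the 40S, 0 and 0 in the 60S). Of 12 polyamine genes 6 fell and 1 rose, with the spermidine synthase gene Srm at -0.63 ± 0.08, and Smox, which oxidises spermine, the one that rose (0.56 ± 0.11).

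Of 57 mitosis genes 28 fell and 1, the checkpoint kinase Bub1, rose (0.49 ± 0.09), with a median of -0.24. Cdc20, the activator of the anaphase-promoting complex, had 72.2, 92.0 and 110.2 CPM with 4EGI-1, against 190.1, 167 and 192 CPM with DMSO (-1 ± 0.12, adjusted p = 1.90e-05). Prc1, which bundles microtubules of the central spindle, had 28.3, 33.6 and 34.2 CPM with 4EGI-1, against 66.6, 60.8 and 64.1 CPM with DMSO (-0.996 ± 0.09), and the cyclin gene Ccnb1 and the kinetochore gene Cenpf changed by -0.79 ± 0.10 and -0.88 ± 0.08. Ccnf, the cyclin F gene, had 16.4, 19.5 and 18.7 CPM with 4EGI-1, against 43.8, 36.2 and 39.4 CPM with DMSO (-1.13 ± 0.10), and Ccnd2, the cyclin of growth factor entry into the cycle, 449, 526 and 532 CPM with 4EGI-1, against 803, 766 and 762 CPM with DMSO (-0.63 ± 0.08). Cdkn1b, the p27 inhibitor of cyclin kinases, rose with 87.5, 90.7 and 86.1 CPM with 4EGI-1, against 52.3, 55.9 and 52.2 CPM with DMSO (0.72 ± 0.08). Of 29 genes of cyclins, CDK inhibitors and E2F factors 9 fell and 4 rose (2 rose without DMSO replicate 3). The share that rose, 13.8%, is near the 14.1% of all genes tested, and 31.0% fell, beside 12.3%. DNA replication gave fewer calls, 7 of 42 genes lower and 1 higher, and its share lower of 16.7% is near the 12.3% of all genes tested. That count lower was 3 without 4EGI-1 replicate 2, 4EGI-1 replicate 3 or DMSO replicate 1, 4 without DMSO replicate 4 and 13 without 4EGI-1 replicate 4, and 0 were higher without 4EGI-1 replicate 4 or DMSO replicate 4. The sequence CCAAT was in 88.9% of the 27 windows of the mitosis genes that fell (24 of 28 genes had a window). It was in 37.4% of all windows, in 38.1% of windows of genes tested, and in the 1 window of Bub1, which rose. Mitosis genes that were not called were not counted, so whether the share is particular to those that fell was not tested.

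Of 35 genes of splicing and SR proteins 12 fell, 8 rose and 15 were not called. The shares were 34.3% lower and 22.9% higher, beside 12.3% and 14.1% of all genes tested. Srsf6 (-0.66 ± 0.07), Srsf2 (-0.63 ± 0.07), Srsf7 and Srsf1, which encode SR proteins that choose exons, were among those that fell, and Clk4 (0.57 ± 0.09) and Clk1 (0.55 ± 0.07), kinases that phosphorylate SR proteins, were among those that rose. Srsf2 had 377, 431 and 456 CPM with 4EGI-1, against 672, 635 and 654 CPM with DMSO. Of 40 genes of cholesterol and fatty acid synthesis 9 fell and 2 rose (22.5% and 5.0%). The 2 that rose were Insig2, which retains the sterol sensor SCAP in the endoplasmic reticulum (0.53 ± 0.08), and Acacb, an acetyl-CoA carboxylase (1.65 ± 0.44). Among the 9 was Hmgcs1, the HMG-CoA synthase of the cytosol, with 159, 192 and 181 CPM with 4EGI-1, against 297, 307 and 299 CPM with DMSO (-0.76 ± 0.08). Mat2a, which makes S-adenosylmethionine, had 102, 104 and 113 CPM with 4EGI-1, against 223, 217 and 210.4 CPM with DMSO (-1.03 ± 0.07).

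Changes in the eIF4F genes were small. Of 19 tested 7 were lower and 1 higher (36.8% and 5.26%, beside 12.3% and 14.1% of all genes tested). Eif4a1, the helicase gene, had 813, 997 and 1129 CPM with 4EGI-1, against 1433, 1187 and 1357 CPM with DMSO (-0.44 ± 0.10, adjusted p = 0.00504), and Eif4g2, a homologue of eIF4G that does not bind eIF4E, had a change of -0.32 ± 0.08. Eif4e, the target of the compound, had 202, 196 and 189 CPM with 4EGI-1, against 220.1, 221 and 229 CPM with DMSO (-0.19 ± 0.06, adjusted p = 0.0337), a call lost without 4EGI-1 replicate 3 or 4 or DMSO replicate 1 or 4 (adjusted p 0.0503 to 0.0931). Eif4g1 had 186, 198 and 274 CPM with 4EGI-1, against 329, 160.0 and 228 CPM with DMSO, with overlapping groups and an adjusted p of 0.676. Cyfip2, whose family member CYFIP1 binds eIF4E, was the 1 gene that rose (0.34 ± 0.08). The count of 7 lower was 3 without 4EGI-1 replicate 3 or DMSO replicate 1, and 4 without 4EGI-1 replicate 2 or DMSO replicate 4.

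RNA of the mitochondrial genome differed by class, with the 2 rRNAs higher and some of the mRNAs lower. The ribosomal RNA mt-Rnr1 (12S) had 5434, 4307 and 3658 CPM with 4EGI-1, against 744, 1203 and 956 CPM with DMSO (2.21 ± 0.17, adjusted p = 1.39e-07), and mt-Rnr2 (16S) had 3889, 3072 and 2221 CPM with 4EGI-1, against 651, 907 and 828 CPM with DMSO (1.94 ± 0.16). The share of counts on the 2 rRNAs was 0.968, 0.777 and 0.614% with 4EGI-1, against 0.142, 0.207 and 0.177% with DMSO. The mRNAs went down or were not called. Their share of counts was 2.83, 2.08 and 1.66% with 4EGI-1, against 2.19, 2.97 and 2.43% with DMSO, with overlapping groups. Cytochrome b (mt-Cytb) had 2023, 1583 and 1445 CPM with 4EGI-1, against 2719.5, 3889 and 3278 CPM with DMSO (-0.97 ± 0.13), mt-Nd4 of complex I had 897, 669 and 604 CPM with 4EGI-1, against 1247, 1619 and 1418 CPM with DMSO (-0.98 ± 0.14) and mt-Nd5 changed by -0.79 ± 0.13. Of 10 mitochondrial mRNAs 4 fell and 0 rose (at an unadjusted p under 0.05, 5 and 0, and 5 and 0 in DESeq2), with a median of -0.73. The fourth, mt-Nd2 (-0.38 ± 0.13, adjusted p = 0.0418), had overlapping groups and was not called on leaving out 4EGI-1 replicate 3 or 4 or DMSO replicate 3 or 4. mt-Co1, the cytochrome oxidase subunit, had 18328, 12942 and 10051 CPM with 4EGI-1, against 12445, 17305 and 13794 CPM with DMSO and did not pass (-0.08 ± 0.17). The libraries were made from polyA RNA, and the part of poly(A) selection in these levels was not tested.

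The largest relative rises were in genes with almost no reads in DMSO libraries. Lct, the gut enzyme lactase, had 449, 378 and 292 counts in the 4EGI-1 libraries and 6, 5 and 2 in the DMSO libraries (6.43 ± 0.26, adjusted p = 4.82e-11). Evpl, an epithelial plakin, had 189, 192 and 234 counts with 4EGI-1 against 3, 5 and 7 with DMSO (5.37 ± 0.37). Lman1l, a relative of a cargo receptor of the secretory pathway, had 133 counts in the 3 4EGI-1 libraries and 2 in the 3 DMSO libraries, a ratio per total count of 72.2 (95% interval of the counting error 19.6 to 602, exact binomial). A3galt2, Ccdc168, Tns2, Cldn15, Kif19b, Myo15a, Chd5, Dok3, Apol8, Dnah10 and Zbtb47 had sums of 121 to 350 counts with 4EGI-1 and 5 to 16 with DMSO. Nup210l, the last of the 15 by fold, had 344, 216 and 176 counts against 27, 31 and 15 (3.36 ± 0.30). For each of these 15 genes every 4EGI-1 library lay above every DMSO library, as the rule that named them required. That rule also asked for a mean CPM of 2 only in the group where the gene was higher. All but Nup210l had fewer than 10 counts in every DMSO library, so the DMSO libraries could not bring them past the filter. These genes were thus tested because of counts outside the DMSO group, and their p-values carry that selection.

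Chd2, a chromatin remodeller, was the gene with the smallest adjusted p, and its level was high in both groups. It had 313, 302 and 298 CPM with 4EGI-1, against 80.0, 81.3 and 81.2 CPM with DMSO (1.91 ± 0.07, adjusted p = 3.03e-11). Of 26 long chromatin and methyltransferase genes 8 rose and 0 fell, Kmt2c (0.78 ± 0.10) and Kmt2a among them. The share that rose was 30.8%, beside 14.1% of all genes tested. At an unadjusted p under 0.05, 9 were higher and 0 lower, and DESeq2 called 8 and 0. The number higher was 4 without 4EGI-1 replicate 2 or 3 or DMSO replicate 4, and 5 without any of the other 3 libraries. The kinase Smg1 of nonsense-mediated decay (0.68 ± 0.09) and Ccnt2, a cyclin of transcription elongation (1.01 ± 0.10), were other genes that rose.

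By amount rather than ratio, the 10 largest rises in mean CPM among called genes were those of mt-Rnr1, mt-Rnr2, Slc2a3, Ero1a, Tfrc, Chd2, Hnrnpa1, Egln3, Slc2a1 and Ddit4. The 10 largest falls among called genes were those of Actb, mt-Cytb, mt-Nd4, mt-Nd5, Ifng, Hnrnpab, Il2ra, Ccl3, Eif5a and Jund. Actb, the cytoskeletal actin often used as a standard, had 3796, 3954 and 4316 CPM with 4EGI-1, against 5664, 5727 and 5686 CPM with DMSO (-0.50 ± 0.06, adjusted p = 2.46e-05), so its 3 4EGI-1 libraries lay below all DMSO libraries. Hnrnpa1 and Eif5a have copies in the genome whose reads may be shared, and their changes were small (0.18 ± 0.06 and -0.26 ± 0.06). The Hnrnpa1 call was lost on leaving out any library but 4EGI-1 replicate 2 or DMSO replicate 4. Ddit4, an mTORC1 inhibitor induced by several stresses, had 371, 471 and 482 CPM with 4EGI-1, against 282, 269 and 274 CPM with DMSO (0.68 ± 0.09). Among the genes of largest fold that fell, Serpina3f, Serpina3g, Ajuba, Cmpk2, Hbegf, F2rl2 and Chst2 changed by -2.08, -1.95, -1.95, -1.78, -1.77, -1.69 and -1.69, with the 2 serpins belonging to a family of near-identical copies.

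The other drugs of the experiment gave a test of what 4EGI-1 did differently. Torin1 inhibits the kinase mTOR, which frees the 4E-BP repressors of eIF4E, and halofuginone inhibits prolyl-tRNA synthetase and activates the integrated stress response. Each was present for the same 3 h, with no dose given, so the values stand side by side and say nothing of potency. 4EGI-1 against Torin1 gave 2431 genes higher and 2247 lower (19.4% and 17.9%), and 4EGI-1 against halofuginone 1389 and 1289 (11.1% and 10.3%). All 3 sets of changes against DMSO use the same DMSO libraries.

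Several effector genes differed between the drugs. Ccl4 had a log2 change against DMSO of -3.84 ± 0.22 with 4EGI-1, -0.34 ± 0.19 with Torin1 and 0.72 ± 0.19 with halofuginone, and the difference of 4EGI-1 from each was -3.50 ± 0.22 and -4.56 ± 0.23 (adjusted p = 2.59e-09 and 5.51e-10). Ifng was low with Torin1 also (-1.27 ± 0.10, against -1.53 ± 0.10 with 4EGI-1), a difference of -0.26 ± 0.10 (adjusted p = 0.0472). For 4 activation genes, picked after their values were seen, the log2 changes against DMSO were negative with 4EGI-1 and positive with Torin1. That of Egr2 was -2.15 ± 0.14 with 4EGI-1 and 0.77 ± 0.12 with Torin1, that of Pim1 -1.15 ± 0.07 and 0.78 ± 0.07, that of Pdcd1 -1.31 ± 0.08 and 0.47 ± 0.08, and that of Myc -0.996 ± 0.09 and 0.44 ± 0.09. The differences of 4EGI-1 from Torin1 ran from -2.92 ± 0.14 (Egr2) to -1.44 ± 0.09 (Myc), with adjusted p of 9.37e-11 and 2.93e-09. Of the 13 cytokines 12 were lower with 4EGI-1 than with Torin1, and 12 lower than with halofuginone. Mat2a and Ccnd2, picked after their values were seen, did not pass between 4EGI-1 and Torin1 (adjusted p = 0.965 and 0.991), with changes against DMSO of -1.03 ± 0.07 and -1.03 ± 0.07 for Mat2a and -0.63 ± 0.08 and -0.63 ± 0.08 for Ccnd2.

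Stress targets set 4EGI-1 apart from Torin1 and, by member, from halofuginone. Of 37 ISR targets 26 were higher with 4EGI-1 than with Torin1 and 0 lower (edgeR), and their median change against DMSO was -0.46 with Torin1. Against halofuginone 7 were higher and 12 lower. Sesn2 changed by 1.06 ± 0.09 with 4EGI-1, -0.79 ± 0.10 with Torin1 and 0.97 ± 0.09 with halofuginone, and the difference from halofuginone was 0.09 ± 0.09 (adjusted p = 0.519). Ddit3 likewise changed by 0.89 ± 0.08 with 4EGI-1 and 0.85 ± 0.08 with halofuginone (difference 0.04 ± 0.08, adjusted p = 0.759). Chac1 was lower with 4EGI-1 than with halofuginone (0.75 ± 0.14 and 1.77 ± 0.14 against DMSO, difference -1.02 ± 0.13), whereas Vldlr (1.57 ± 0.15 and 0.49 ± 0.16, difference 1.09 ± 0.15) and Ppp1r15a (1.15 ± 0.09 and 0.13 ± 0.09, difference 1.02 ± 0.09) were higher. Vegfa changed by 1.05 ± 0.09 with 4EGI-1, -1.10 ± 0.09 with Torin1 and 0.18 ± 0.09 with halofuginone.

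**Figure D4:**
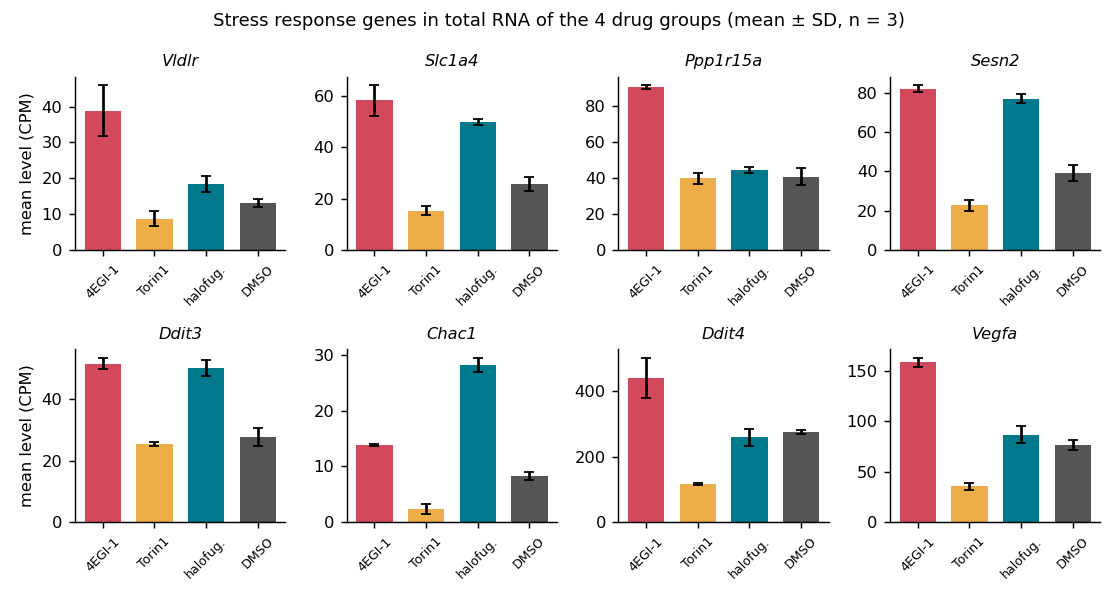
Mean level (CPM, bars from 0) with SD (n = 3 libraries each) of 8 stress response genes in total RNA with 4EGI-1, Torin1, halofuginone and DMSO, left to right. Sesn2 and Ddit3 stand at like heights with 4EGI-1 and halofuginone, Chac1 is highest with halofuginone, and Vldlr, Ppp1r15a, Ddit4 and Vegfa are highest with 4EGI-1.

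Polysome RNA of the same lysates, pooled from gradient fractions 9 to 13, gave a second readout. The test of polysome change minus total change called 36 genes higher and 36 lower of 12745 (0.282% each). With the lysate as a block, since each lysate gave both libraries, it called 451 higher and 179 lower. Other settings also split these calls differently, with 23 higher and 64 lower under RLE scaling and 31 and 91 with a minimum count of 50. Without the lysate of 4EGI-1 replicate 4 or of DMSO replicate 3 there were 0 higher, and without that of 4EGI-1 replicate 2 there were 4 (edgeR). Ccl4 changed by -4.19 ± 0.23 in polysome RNA and -3.84 ± 0.22 in total RNA, Egr2 by -2.25 ± 0.16 and -2.15 ± 0.14, Ifng by -1.39 ± 0.14 and -1.53 ± 0.10, and Chd2 by 1.89 ± 0.12 and 1.91 ± 0.07, so each had the same sign in both. In the main fit, without the lysate as a block, none of the 4 passed the test of the difference, which for Ccl4 was -0.31 ± 0.30 (adjusted p = 0.638). Not passing in that fit does not show that the changes were equal.

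Among called genes the 5 largest differences in the lower direction were all in mitochondrial RNAs. mt-Nd4 fell by far more in polysome RNA (-4.30 ± 0.25) than in total RNA (-0.98 ± 0.14), a difference of -3.27 ± 0.32 (adjusted p = 4.36e-07), and mt-Cytb (-3.14 ± 0.29), mt-Nd2 (-2.61 ± 0.30) and mt-Co1 (-2.56 ± 0.35) followed. mt-Rnr1, higher in total RNA, changed by -0.27 ± 0.34 in polysome RNA (difference -2.43 ± 0.48, adjusted p = 0.0147), a call lost without the lysate of 4EGI-1 replicate 2 (adjusted p = 0.09), 4EGI-1 replicate 4 (0.115) or DMSO replicate 3 (0.106). Mitochondrial mRNAs are translated by mitochondrial ribosomes, so their place in the gradient need not reflect cytosolic translation. Ribosomal protein mRNAs were also called lower in this test, 7 of 33 of the 40S and 8 of 47 of the 60S subunit. Over all genes tested the share called lower was 0.282%. The median differences of the 2 lists were -0.66 and -0.63, with median polysome changes of -0.79 and -0.77. In the other direction Natd1 (1.5 ± 0.34), Rnf24 (1.29 ± 0.30), Cep83os (1.23 ± 0.29), Mmgt1 (1.16 ± 0.27) and Tnks (1.15 ± 0.23) had the 5 largest differences among called genes, each with an adjusted p between 0.0204 and 0.0445, and all 5 calls were lost without 4EGI-1 replicate 4 or without DMSO replicate 3. Cep83os is an antisense transcript, and whether counting used strand is not given in the sources used here.

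**Figure D5:**
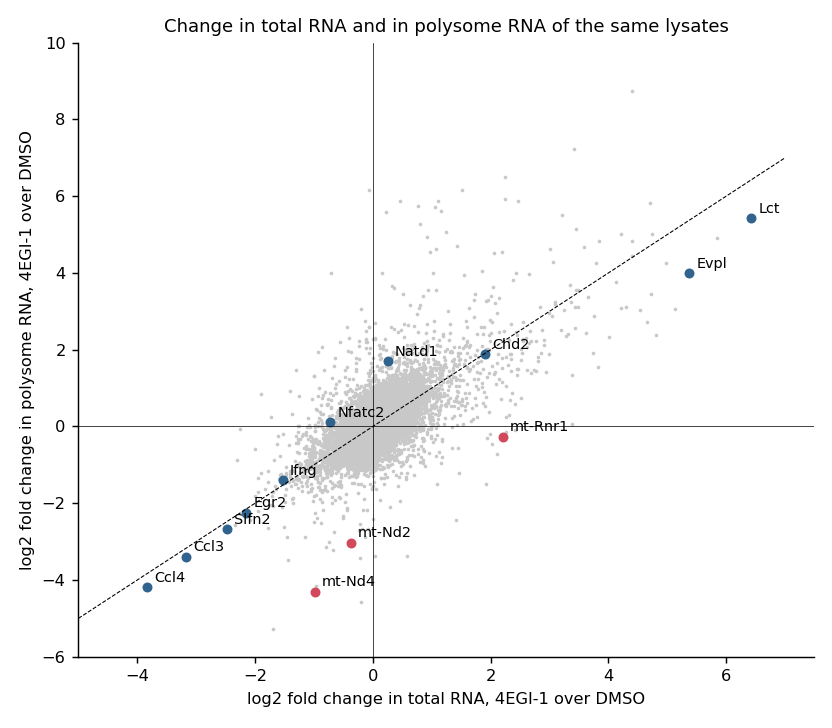
Each grey point is a gene, with its log2 fold change of 4EGI-1 over DMSO in total RNA on the horizontal axis and in polysome RNA on the vertical axis, and the dashed line marks equal change. Ccl4, Ccl3, Egr2, Ifng and Chd2 (blue) lie near the line, as does Slfn2. Natd1 and Nfatc2 lie above it, Lct and Evpl somewhat below it, and mt-Nd4, mt-Nd2 and mt-Rnr1 (red) far below it.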

How the data were processed

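The authors deposited raw counts per gene for the libraries, and the counts are whole numbers with no normalization. Per the submitters' processing notes FastQC, MultiQC, Trimmomatic, STAR, HTSeq and edgeR were used with the build GRCm39. Their versions and settings are not given in the sources used here. Counts of the 12 total RNA drug libraries were kept by filterByExpr (minimum count 10), scaled by TMM and tested with the edgeR 4.0.16 quasi-likelihood test in R 4.3.3 (8 residual degrees of freedom), with Benjamini-Hochberg adjustment and a threshold of 0.05. The polysome comparison used an interaction term over 24 libraries, with no block for the lysate in the main fit. The standard error is the log2 fold change divided by the root of F. Scripts were tested on simulated data. Genes were named by fold (15 per direction), by CPM difference (10), by list membership and by interaction (5). The members and lists were chosen with earlier results of these data known. Alternatives were RLE scaling, other filters, DESeq2 1.42.0, fewer libraries, replicate blocks and glmTreat. Residuals of same-numbered total RNA libraries correlated at -0.0819 to 0.243 over 14 pairs, so the numbers were not taken as pairing them, whereas a total and a polysome library share a lysate by label. The 18 monosome libraries were not analysed here. Some genes are not reported here by name.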

Additional observations from a re-analysis of the deposited data

Results flagged for a closer look

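The results listed here are genes whose change with 4EGI-1 differed between polysome and total RNA in the interaction test of edgeR. In mt-Nd4 the difference was -3.27, in mt-Cytb -3.14, in mt-Nd2 -2.61, in mt-Co1 -2.56 and in mt-Nd5 -2.29, all log2 values of polysome change minus total change. The polysome changes of these mitochondrial mRNAs were -4.3, -4.16, -3.03, -2.68 and -3.13 in the same order, and the 5 calls held under every alternative run. mt-Rnr1 had a difference of -2.43, with a change of -0.27 in polysome RNA and 2.21 in total RNA. Natd1 (1.5), Rnf24 (1.29), Cep83os (1.23), Mmgt1 (1.16) and Tnks (1.15) had higher changes in polysome RNA. Nfatc2, a factor of calcium signalling in T cells, had a difference of 0.88 ± 0.18 (adjusted p = 0.0224), with 0.11 in polysome RNA and -0.72 in total RNA. That call was lost without the lysate of 4EGI-1 replicate 2 (adjusted p = 0.0918), 4EGI-1 replicate 4 (0.148), DMSO replicate 1 (0.0772) or DMSO replicate 3 (0.106). What sets these differences was not tested.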

How the results depend on the processing

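The counts of 4EGI-1 against DMSO in total RNA stayed within 1.5 times under RLE scaling, both filters, DESeq2, the 6 libraries alone and the replicate block (3151 called, against 3308), and fell to 189 higher and 113 lower with glmTreat at a fold of 1.5. Leaving out single libraries gave 1208 to 1710 higher and 1100 to 1610 lower, 1951 to 2480 and 1766 to 2287 against Torin1, and 975 to 1397 and 975 to 1384 against halofuginone. For polysome change minus total change the counts were 23 higher and 64 lower with RLE (26.4% higher), 31 and 91 with a minimum count of 50 (25.4%), 151 and 224 with DESeq2, 451 and 179 with the replicate block by lysate, and 0 to 65 higher and 8 to 52 lower on leaving out single lysates. The cause was not tested. For the change in total RNA, all of 162 named genes kept their call and sign under RLE and 161 under DESeq2. With glmTreat at a fold of 1.5, 94 stayed as they were and 68 lost their call. Members still called there included 5 ISR targets and 1 glycolysis or HIF gene higher, and 3 mitosis and 1 ribosome biogenesis gene lower. Interferon-stimulated genes kept 6 lower, and splicing genes had 0 in either direction. Of the named calls on polysome change minus total change, those of Rnf24 and Cep83os were lost under RLE (adjusted p = 0.0512 each). With the replicate block 9 of 10 mitochondrial mRNAs and 16 of 40 genes of cholesterol and fatty acid synthesis were lower, and Trib3 passed (0.57, adjusted p = 0.000364). Signs turned in genes that were not called. With the replicate block Eif4g1 was 0.074, Asns 0.025 and Mmgt1 -0.003. On leaving out single libraries the range was -0.202 to 0.028 for Asns, -0.035 to 0.198 for Mmgt1, -0.337 to 0.101 for mt-Co1, -0.356 to 0.171 for Eif4g1 and -0.109 to 0.022 for Ltb. With 3 libraries a group and genes near 0 counts with DMSO, depth limits the folds of the largest rises.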
